A study of Mus musculus with 5 samples.

Results

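Fibrillar collagens are the rod-shaped proteins that assemble into the load-bearing fibrils of connective tissue, and 8 of their genes were followed here in cells of the mouse spinal cord. The genes were Col1a1, Col1a2, Col3a1, Col5a1, Col5a2, Col5a3, Col11a1 and Col11a2. They were taken by symbol, and each of the 8 was a row of the count table of every library, among 27998 genes common to all 5 libraries. The cells had been sorted for green fluorescence from a Col1a1 reporter in mice on a C57/BL6 background, and each table held UMI counts (unique molecular identifiers, 1 per captured transcript) per gene and cell barcode. Libraries EAE 1 and EAE 2 came from mice with EAE (experimental autoimmune encephalomyelitis, an immune attack on myelin that inflames the cord). Libraries Healthy 1, Healthy 2 and Healthy 3 came from healthy mice with the same reporter. The reporter marks cells by activity of the Col1a1 promoter, so the sort itself used a readout of a member gene, and cells that do not drive the reporter were not sampled by design. The labels give no age, no stage or score of the disease, and nothing on whether each library is from its own animal. The spread behind each p-value is therefore that between libraries and may be technical.

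In each fibril, long triple helices are packed side by side. Type I collagen is the bulk of most fibrils and is built from chains encoded by Col1a1 and Col1a2, and type III collagen (Col3a1) copolymerises with it in soft tissues and vessel walls. Type V chains (Col5a1, Col5a2, Col5a3) and type XI chains (Col11a1, Col11a2) are minor components that start new fibrils and limit their width, with type XI best known from cartilage. In the cord, these genes are known from the meninges and from the fibroblasts and mural cells around vessels, and they are a main part of the fibrotic scar that can follow injury or inflammation. The 8 genes lie on 7 chromosomes of the mm10 assembly, and all are annotated as protein-coding. Col1a1 is at chr11:94936224-94953042 on the plus strand, and Col1a2 is at chr6:4504814-4541544 on the plus strand. Col3a1 (chr1:45311538-45349706, plus strand) and Col5a2 (chr1:45374321-45503282, minus strand) are neighbours. Col5a1 is at chr2:27886425-28039514 (plus strand), Col5a3 at chr9:20770050-20815067 (minus strand), Col11a1 at chr3:114030540-114220718 (plus strand) and Col11a2 at chr17:34039437-34066685 (plus strand).

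The tables held 2156 and 1262 barcodes in EAE 1 and EAE 2, and 2293, 1118 and 376 in Healthy 1, Healthy 2 and Healthy 3. Their UMI totals ranged from 7317084 to 10775024 in the EAE libraries and from 1588693 to 1990869 in the Healthy libraries. EAE 1 shared 1239 barcodes with Healthy 1 and 683 with Healthy 2, and Healthy 1 and Healthy 2 shared 996. Where EAE 1 and Healthy 1 shared a barcode, the Healthy 1 copy held a median of 0.0939 of the UMIs. Each such barcode was therefore kept only in the library where its UMI total was highest, which took out 67.6% of the barcodes of Healthy 1 and 61.2% of those of Healthy 2. After a filter on genes and mitochondrial share, 1913 and 1238 cells were kept in EAE 1 and EAE 2, and 724, 429 and 374 in Healthy 1, Healthy 2 and Healthy 3. Cells were classed by UMIs of fixed marker lists that hold no fibrillar collagen. Fibroblast-gated cells (Dcn, Lum, Pdgfra and 4 other genes) made up 1656 and 1143 of them in the EAE libraries and 617, 380 and 350 in the Healthy libraries. All 7 markers of that list were detected in the fibroblast-gated cells of every library. The summed level of that list was 12935 and 11578 CPM (counts per 1000000, here UMIs of the listed genes scaled to all UMIs of those cells) in EAE 1 and EAE 2, and 29161, 40139 and 30562 CPM in Healthy 1, Healthy 2 and Healthy 3. The median UMI count of a fibroblast-gated cell was 4663.5 and 5225 in EAE 1 and EAE 2, against 1273, 3152 and 4293.5 in Healthy 1, Healthy 2 and Healthy 3.

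In fibroblast-gated cells, Col1a2, Col3a1, Col5a1 and Col5a2 rose in EAE, by 1.18 to 2.07 on the log2 scale. The 8 genes together held 1.95% and 1.86% of all UMIs in these cells in EAE 1 and EAE 2, against 0.497%, 0.845% and 0.751% in Healthy 1, Healthy 2 and Healthy 3. The remaining chains of types V and XI, Col5a3 and Col11a1, did not pass the test, and Col11a2 was too sparse to be tested. Whether more transcripts per cell or a different mix of cells lies behind a summed level cannot be told apart in sums per library, and values within subsets of fibroblasts are given further on.

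Col1a1, which encodes the alpha-1 chain of type I collagen, stood at 6978 and 7475 CPM in EAE 1 and EAE 2. It stood at 1539, 3421 and 2945 CPM in Healthy 1, Healthy 2 and Healthy 3. The groups did not overlap, and Healthy 1 was the lowest library. The log2 fold change, EAE over Healthy, was 1.33 with a standard error of 0.36, and with an adjusted p of 0.0647 it missed the threshold of 0.05 (edgeR quasi-likelihood test, Benjamini-Hochberg over 9904 genes). The call of Col1a1 turned on the processing. DESeq2 gave an adjusted p of 0.00269, the fit with no batch term 0.0325, and the fit with all barcodes as deposited 0.00222, while thinning every cell to at most 1000 UMIs gave 0.251. Without EAE 1 the adjusted p of Col1a1 was 0.212, and it was 5.43e-06 without EAE 2, 7.75e-05 without Healthy 1, 0.00143 without Healthy 2 and 2.26e-05 without Healthy 3.

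Col1a2, the gene of the alpha-2 chain that joins alpha-1 chains in the type I helix, stood at 6208 and 5978 CPM in EAE 1 and EAE 2, and at 2034, 2712 and 2721 CPM in Healthy 1, Healthy 2 and Healthy 3. The groups did not overlap, and the EAE libraries differed by less than the Healthy libraries did. Its log2 fold change was 1.18 (SE 0.17, adjusted p = 5.33e-04). Without EAE 1 the fold change was 1.08 and narrowly missed the threshold, with EAE 2 the only EAE library left.

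Col3a1, the single chain of type III collagen, stood at 5504 and 4343 CPM in EAE 1 and EAE 2, and at 1180, 1968 and 1456 CPM in Healthy 1, Healthy 2 and Healthy 3. The lowest EAE library was above the highest Healthy library, and its log2 fold change was 1.61 (SE 0.22, adjusted p = 8.14e-04).

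Among the minor chains, Col5a1, a chain of the common form of type V collagen, showed the largest fold change of the 7 genes tested. Its levels were 269 and 270.2 CPM in EAE 1 and EAE 2, against 40.4, 61.5 and 74.0 CPM in Healthy 1, Healthy 2 and Healthy 3. The EAE libraries were nearly level with each other, and the groups were far apart (log2 fold change 2.07, SE 0.23, adjusted p = 1.22e-04). Col5a2, the alpha-2 chain of type V, stood at 470.1 and 388 CPM in EAE 1 and EAE 2 and at 80.7, 141 and 108 CPM in Healthy 1, Healthy 2 and Healthy 3. Here too the groups did not overlap (log2 fold change 1.88, SE 0.24, adjusted p = 3.49e-04).

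Col5a3, a type V chain known from fewer tissues, did not follow the other type V chains. It stood at 30.8 and 48.5 CPM in EAE 1 and EAE 2 and at 24.4, 54.1 and 47.1 CPM in Healthy 1, Healthy 2 and Healthy 3, with full overlap (log2 fold change -0.29, SE 0.30, adjusted p = 0.553). Its sign turned to 0.11 without Healthy 2. Col11a1, the alpha-1 chain of type XI, stood at 68.1 and 109.6 CPM in EAE 1 and EAE 2 and at 68.0, 85.3 and 151 CPM in Healthy 1, Healthy 2 and Healthy 3. These groups overlapped as well (log2 fold change -0.40, SE 0.21, adjusted p = 0.203). Col11a2 had 38 and 27 UMIs in EAE 1 and EAE 2 and 0, 3 and 7 UMIs in Healthy 1, Healthy 2 and Healthy 3, which is at most 4.71 CPM in any library.

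**Figure D1:**
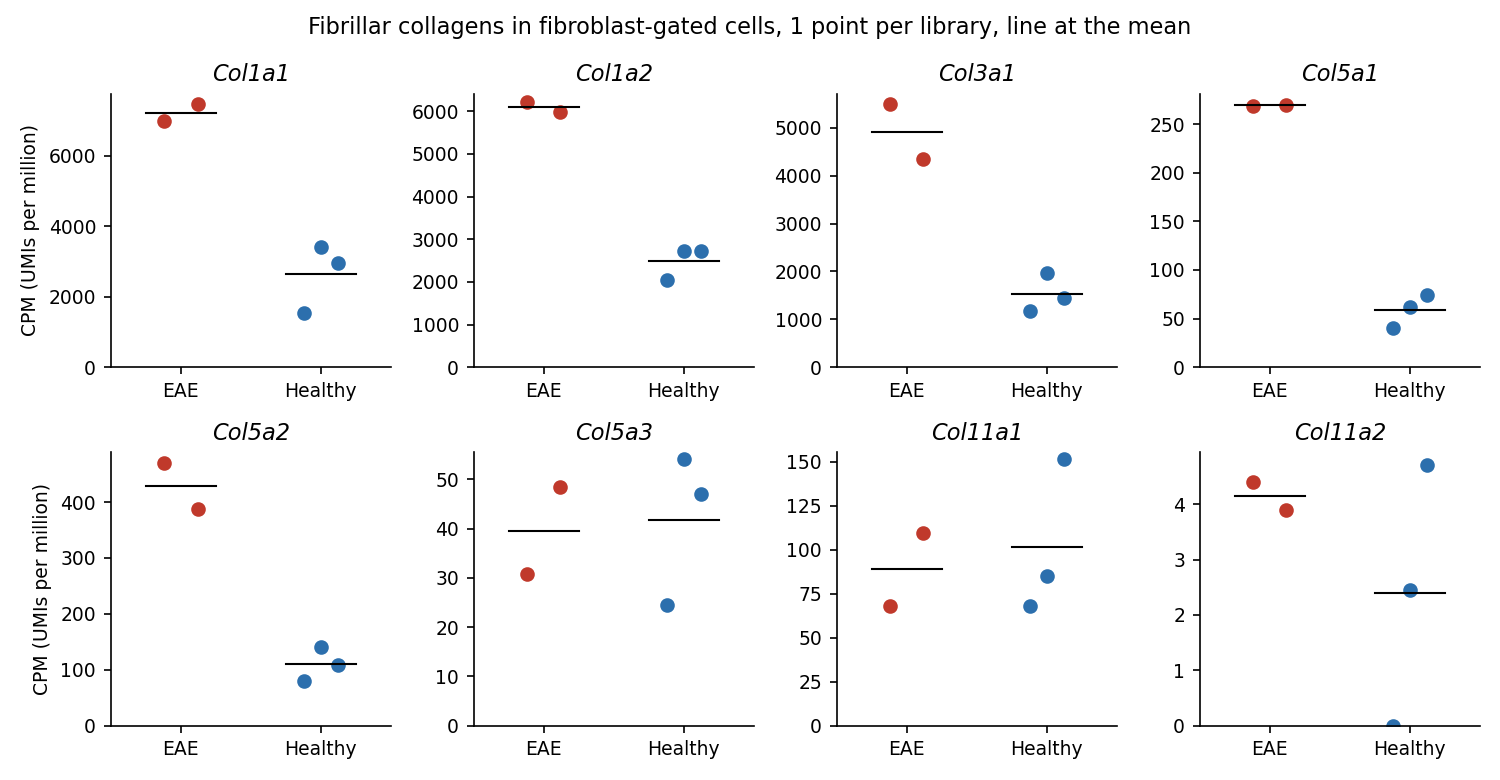
Level of each fibrillar collagen in fibroblast-gated cells in CPM (vertical axes, linear and starting at 0, a scale for each gene), with 1 point per library, EAE left and Healthy right, and a line at the group mean. For Col1a1, Col1a2, Col3a1, Col5a1 and Col5a2 both EAE points lie above all 3 Healthy points, while the groups overlap for Col5a3, Col11a1 and Col11a2.

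Of the 7 fibrillar collagens tested in fibroblast-gated cells, 4 were higher in EAE and 0 lower, where 10.3% of all 9904 genes were called higher and 10.7% lower. By plain levels, 5 of the 7 had both EAE libraries above all Healthy libraries, as had 27.8% of all genes tested. The median log2 fold change of the 7 was 1.33, against 0.00438 over all genes. Without EAE 1, 3 of the 7 were called higher, and the calls over all genes moved to 339 higher and 330 lower, against 1019 and 1057 with all libraries. Without EAE 2 they were 606 and 567, and without Healthy 3 they were 677 and 573. Markers of other cell types were also counted in the fibroblast-gated cells. Of the 7 immune markers, 7 and 6 were detected in EAE 1 and EAE 2 and 2 in each Healthy library. They summed to 23.7 and 10.1 CPM in EAE 1 and EAE 2, against 2.12, 2.46 and 2.02 CPM in Healthy 1, Healthy 2 and Healthy 3. The 5 osteoblast markers, of a cell type that makes much type I collagen, summed to 2.90 and 1.44 CPM in EAE 1 and EAE 2, against 1.06, 13.1 and 1.35 CPM in Healthy 1, Healthy 2 and Healthy 3. The 5 endothelial markers summed to 153 and 175 CPM in EAE 1 and EAE 2, against 81.8, 60.7 and 96.9 CPM in Healthy 1, Healthy 2 and Healthy 3. Most of that sum was Cdh5, with 2373 UMIs in 36.4% of all fibroblast-gated cells. Pecam1 had 238 UMIs there, Flt1 196, Esam 13 and Cldn5 3. Cycling markers summed to 149.8 and 71.9 CPM in EAE 1 and EAE 2, against 3.19, 6.56 and 12.8 CPM in Healthy 1, Healthy 2 and Healthy 3. Mural markers, of a class that also holds these transcripts, summed to 37.6 and 31.8 CPM in EAE 1 and EAE 2, against 28.7, 18.0 and 22.9 CPM in Healthy 1, Healthy 2 and Healthy 3. Melanocyte markers were at most 2.67 CPM in any library, and neural markers summed to 19.1 and 19.2 CPM in EAE 1 and EAE 2, against 23.4, 26.2 and 29.6 CPM in Healthy 1, Healthy 2 and Healthy 3. Of these sums, the osteoblast ones overlapped between the states and the others did not, and the part of these markers in the collagen levels was not tested.

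Levels of the members were also set against each other, as ratios. For each UMI of Col5a1 there were 0.114 and 0.180 UMIs of Col5a3 in fibroblast-gated cells of EAE 1 and EAE 2, against 0.605, 0.880 and 0.636 in Healthy 1, Healthy 2 and Healthy 3. The ratio of Col11a1 to Col5a1 was 0.254 and 0.406 in EAE 1 and EAE 2, against 1.68, 1.39 and 2.05 in Healthy 1, Healthy 2 and Healthy 3. Both ratios were lower in each EAE library than in any Healthy library, by 2.28 and 2.39 on the log2 scale (means -2.80 ± 0.46 and -0.52 ± 0.29 for the Col5a3 ratio, and -1.64 ± 0.48 and 0.75 ± 0.28 for the Col11a1 ratio, in EAE and Healthy, SD over n = 2 and 3). The exact two-sided permutation test over the 10 splits of 5 libraries gave p = 0.2 for each, the smallest it can give, and 0.5 after adjustment over the 5 ratios compared. Within the batch of EAE 1, Healthy 1 and Healthy 2 the differences were -2.67 and -2.59, and within the batch of EAE 2 and Healthy 3 they were -1.83 and -2.33. With all barcodes as deposited, shared ones counted in every library, the differences were smaller, -1.48 and -1.63, and the ratios in Healthy 1 were 0.239 and 0.673. Each EAE library was still below every Healthy library. Both ratios have Col5a1 as the denominator, which itself rose by 2.07 on the log2 scale, so they are not separate from that result. Ratios of other genes were not computed, so the lack of overlap has no share to be read against.

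Within type I collagen the ratio of Col1a2 to Col1a1 showed overlap, with 0.890 and 0.800 in EAE 1 and EAE 2 and 1.32, 0.793 and 0.924 in Healthy 1, Healthy 2 and Healthy 3 (difference in log2 means -0.23, exact permutation p = 0.6). The ratio of Col3a1 to Col1a1, which sets type III against type I, was 0.789 and 0.581 in EAE 1 and EAE 2 and 0.767, 0.575 and 0.494 in Healthy 1, Healthy 2 and Healthy 3. That difference was 0.17 (exact permutation p = 0.4) and turned to -0.05 without EAE 1. The ratio of Col5a1 to Col5a2 differed by 0.25 (exact permutation p = 0.4).

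Fewer UMIs per cell in the Healthy libraries make a transcript easier to miss, so shares of cells were compared after every cell was thinned to 1000 UMIs. That step left out 0 and 37 shallower fibroblast-gated cells in EAE 1 and EAE 2 and 229, 20 and 9 in Healthy 1, Healthy 2 and Healthy 3. At least 1 UMI of Col5a1 was found in 19.4% and 17.4% of the cells of EAE 1 and EAE 2, against 3.35%, 4.72% and 3.81% in Healthy 1, Healthy 2 and Healthy 3. The exact 95% binomial (Clopper-Pearson) intervals ran from 15.2% to 21.4% over the EAE libraries and from 1.80% to 7.45% over the Healthy libraries, and they cover counting error only. Before thinning, the mean shares for Col5a1 were 56.2% in EAE and 14.5% in Healthy. Col5a2 was found in 29.5% and 25.3% of the cells of EAE 1 and EAE 2, and in 7.99%, 12.8% and 10.6% of those of Healthy 1, Healthy 2 and Healthy 3, with means of 66.5% and 24.5% before thinning.

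Col3a1 was found in 90.4% and 80.7% of the thinned cells of EAE 1 and EAE 2 and in 56.4%, 71.7% and 62.8% of those of Healthy 1, Healthy 2 and Healthy 3. The means of Col3a1 before thinning were 96.7% in EAE and 79.1% in Healthy. Col1a1 was found in 95.4% and 93.4% of the cells of EAE 1 and EAE 2, against 69.3%, 87.8% and 85.04% in Healthy 1, Healthy 2 and Healthy 3, and its means before thinning were 99.1% in EAE and 88.8% in Healthy. In immune-gated cells, thinning left Col1a1 in 7.26% of 124 cells of EAE 1 and 3.70% of 27 cells of EAE 2. Their median depths before thinning were 3074 and 2343 UMIs. These cells came through the same reporter sort, and the source of their Col1a1 UMIs was not tested. For 6 of the 8 genes both EAE shares lay above all Healthy shares, and each of those 6 gave an exact permutation p of 0.2, the smallest possible. Thinned shares were not computed for other genes, so this count has no share over all genes to be read against. Col11a2 was among the 6 with mean shares of only 0.619% in EAE and 0.0978% in Healthy. With 2000 UMIs per cell Col11a2 overlapped and the count was 5. Outside the 6 were Col5a3 and Col11a1. Their mean shares were 2.85% and 8.11% in EAE and 4.56% and 8.25% in Healthy, and the sign of both differences turned without thinning. Per thinned cell, the median number of UMIs of all 8 genes together was 14 and 13 in EAE 1 and EAE 2 and 4, 6 and 6 in Healthy 1, Healthy 2 and Healthy 3.

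With no gate on cell class, in all kept cells, the same 4 genes passed the test as in fibroblast-gated cells, where 9.06% of 10224 genes were called higher. Col5a1 rose by 1.97 (adjusted p = 2.38e-04), Col5a2 by 1.70 (adjusted p = 0.00135), Col3a1 by 1.56 (adjusted p = 7.29e-04) and Col1a2 by 1.01 (adjusted p = 0.00339) on the log2 scale. Col1a1 had a log2 fold change of 1.15 (adjusted p = 0.132). One barcode of Healthy 2, gated as an osteoblast with 17704 UMIs, alone held 22.0% of the Col1a1 UMIs of the kept cells of that library. Without Healthy 2, Col1a1 was called (1.56, adjusted p = 2.77e-04), as it was without EAE 1 (adjusted p = 0.00145), EAE 2 (0.00159) or Healthy 1 (0.00307), but not without Healthy 3 (0.425). With barcodes found in more than 1 library left out, Col5a1 and Col5a2 were called and the other tested genes were not (adjusted p of 0.140 for Col1a2 and 0.0721 for Col3a1). Without Healthy 1, Col11a1 was called lower (-0.58, adjusted p = 0.0389).

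Promoters are printed for the members that were tested and have an entry in the table, so that the genes that rose and those that did not can be set side by side. RefSeq, on the GRCm38.p6 assembly, gave a start for 6 of the 8 genes, which leaves Col1a1 and Col5a2 named only. Each line below gives the 250 bases before the start, 5′ to 3′ on the gene's own strand, in lower case, with the letters CCAAT or, for the other strand, ATTGG in capitals. CCAAT is the core of the box bound by nuclear factor Y, which is known from collagen promoters.
Col1a2 (chr6:4505368-4505617, plus strand): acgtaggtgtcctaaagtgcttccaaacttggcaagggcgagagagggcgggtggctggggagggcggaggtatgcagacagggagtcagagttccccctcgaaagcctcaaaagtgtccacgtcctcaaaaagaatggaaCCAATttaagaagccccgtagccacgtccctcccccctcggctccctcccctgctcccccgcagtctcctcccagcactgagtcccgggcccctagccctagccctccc
Col3a1 (chr1:45311288-45311537, plus strand): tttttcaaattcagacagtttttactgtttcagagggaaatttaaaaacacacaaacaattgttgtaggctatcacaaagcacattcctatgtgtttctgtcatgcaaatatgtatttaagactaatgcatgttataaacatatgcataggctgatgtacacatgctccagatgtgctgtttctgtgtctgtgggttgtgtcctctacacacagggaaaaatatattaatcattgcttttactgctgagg
Col5a1 (chr2:27886175-27886424, plus strand): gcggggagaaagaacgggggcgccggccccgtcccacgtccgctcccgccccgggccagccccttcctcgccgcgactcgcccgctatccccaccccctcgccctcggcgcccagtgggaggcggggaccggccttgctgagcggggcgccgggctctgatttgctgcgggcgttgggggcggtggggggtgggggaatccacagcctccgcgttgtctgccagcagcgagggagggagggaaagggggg
Col5a3 (chr9:20815068-20815317, minus strand): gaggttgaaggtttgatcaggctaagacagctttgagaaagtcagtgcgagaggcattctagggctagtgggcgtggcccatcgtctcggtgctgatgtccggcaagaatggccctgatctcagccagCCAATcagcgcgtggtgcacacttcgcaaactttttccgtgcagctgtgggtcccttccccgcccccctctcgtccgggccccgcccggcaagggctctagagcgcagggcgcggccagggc
Col11a1 (chr3:114030290-114030539, plus strand): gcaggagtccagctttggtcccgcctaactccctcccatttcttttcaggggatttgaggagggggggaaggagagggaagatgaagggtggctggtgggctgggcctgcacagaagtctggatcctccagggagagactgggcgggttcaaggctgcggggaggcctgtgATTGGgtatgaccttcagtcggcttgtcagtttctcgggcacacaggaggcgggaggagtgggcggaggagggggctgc

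The letters CCAAT, on either strand, stood once in Col1a2, Col5a3 and Col11a1 and not in Col3a1 or Col5a1. They began 109, 122 and 79 bases before the start. So the match was found in 1 of the 3 printed members that rose and in both that did not, where 34.5% of 27025 promoters of that length hold it. The letters GGGCGG, on either strand, stood in all of the printed promoters except that of Col3a1, against 32.9% of all promoters, and TATAAA in Col3a1 alone of those printed, against 13.0%. The promoter of Col3a1 had 35.2% G and C and that of Col5a1 76.4%. The start that RefSeq gives Col1a2 lies inside the gene as positioned above, which begins upstream of the window, so other starts of that gene were not searched. A match is a description of letters and no evidence of binding.

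In mural-gated cells, the pericytes and smooth muscle cells of vessel walls (Rgs5, Kcnj8, Notch3 and 4 other markers), Col1a2 was the member that passed the test. There were 53 and 29 such cells in EAE 1 and EAE 2 and 23, 32 and 20 in Healthy 1, Healthy 2 and Healthy 3. Col1a2 stood at 1235 and 993 CPM in EAE 1 and EAE 2 and at 138, 296 and 362 CPM in Healthy 1, Healthy 2 and Healthy 3, without overlap. Its log2 fold change was 1.96 (SE 0.41, adjusted p = 0.0375), so that 1 of the 5 members tested was called higher, where 0.529% of 2268 genes were. The call was lost without EAE 1 (1.41, adjusted p = 0.387) and without Healthy 1 (1.73, adjusted p = 0.434), with no batch term (adjusted p = 0.0878) and with all barcodes as deposited (adjusted p = 0.0839).

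Col3a1, a usual collagen of vessel walls, stood at 2261 and 1234 CPM in mural-gated cells of EAE 1 and EAE 2 and at 414, 785 and 900.2 CPM in Healthy 1, Healthy 2 and Healthy 3. The groups did not overlap, but Col3a1 did not pass (1.25, SE 0.41, adjusted p = 0.232) unless EAE 2 (1.85, adjusted p = 0.0321) or Healthy 3 (1.85, adjusted p = 0.0182) was left out. Col1a1 (1.27, adjusted p = 0.326), Col5a1 (1.93, adjusted p = 0.470) and Col5a2 (1.44, adjusted p = 0.253) did not pass either. For these 3 as well, each EAE value exceeded every Healthy value, which was so for 13.7% of all genes tested. Col5a1 had 15 and 19 UMIs in EAE 1 and EAE 2 and 2 in each Healthy library, under the level of 3 counts. It passed the filter on low counts through the EAE sums. So 1.93 is no measure of size, and nothing is drawn from the lack of overlap of Col5a1. Fibroblast markers in the mural-gated cells summed to 836 and 846 CPM in EAE 1 and EAE 2, against 469, 785 and 856 CPM in Healthy 1, Healthy 2 and Healthy 3. Osteoblast markers summed to 104.4 and 52.9 CPM in EAE 1 and EAE 2, against 0, 25.3 and 0 CPM in Healthy 1, Healthy 2 and Healthy 3. That sum was nearly all Dmp1, with 27 UMIs over the mural-gated cells, against 1 each of Bglap2 and Sp7 and 0 of Ibsp and Bglap. Markers of some fibroblast subsets were higher in EAE in these cells, and those of other subsets were not. Lcn2 and Saa3 summed to 326 and 258 CPM in mural-gated cells of EAE 1 and EAE 2 and were at 0 in all Healthy libraries. Tnc and Cxcl9 summed to 485 and 176 CPM in EAE 1 and EAE 2, against 0, 25.3 and 22.0 CPM in Healthy 1, Healthy 2 and Healthy 3. Lsp1, Npy1r and Dapk1 summed to 448 and 153 CPM in EAE 1 and EAE 2, against 248, 312 and 439 CPM in Healthy 1, Healthy 2 and Healthy 3. The Itih5 Hsd11b1 Edn3 list overlapped as well. Igfbp3, Slc13a3 and Wnt4 were lower in EAE, on 1 and 3 UMIs against 1, 8 and 2. The Gfra1 Osr2, Clec3b Igfbp2 and Inmt Cldn1 Aldh1a3 lists held at most 3 UMIs in any library. The part of all these markers in the mural values was not tested.

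**Figure D2:**
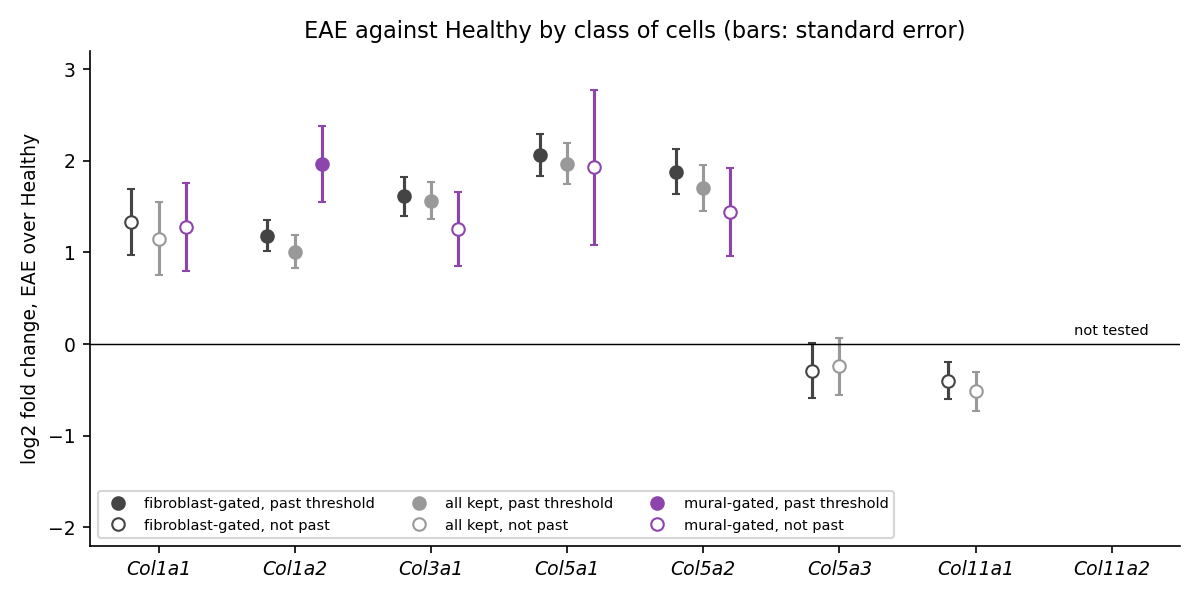
Log2 fold change of each fibrillar collagen, EAE over Healthy (vertical axis), in fibroblast-gated, all kept and mural-gated cells, with standard errors as bars and filled points for adjusted p under 0.05. Col5a1 has the largest value in fibroblast-gated cells at 2.07, Col1a2 is the one filled mural point at 1.96, and Col5a3 and Col11a1 lie below 0.

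Mural-gated cells held less of most fibrillar collagens than fibroblast-gated cells of the same libraries. Of 7 members tested, 6 were lower, where 13.2% of 6725 genes were lower, and for Col11a1 among them no call is drawn, as given below. Over all 5 libraries, Col1a1 had 275 UMIs (475 CPM) in mural-gated and 121901 UMIs (6352 CPM) in fibroblast-gated cells, a log2 difference of -3.72 (SE 0.24, adjusted p = 2.36e-11). Col1a2 differed by -3.08 (SE 0.23, adjusted p = 5.13e-10). Type III collagen was closer between the classes, with 1327 CPM of Col3a1 in mural-gated and 4335 CPM in fibroblast-gated cells (-1.52, SE 0.24, adjusted p = 5.00e-05).

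Of the type V chains, Col5a1 differed by about as much as Col3a1 (-1.54, SE 0.35, adjusted p = 0.00169) and Col5a2 by -0.83 (SE 0.27, adjusted p = 0.0288), a call that was lost without EAE 1 (adjusted p = 0.178), Healthy 2 (0.0789) or Healthy 3 (0.0666). Col11a1 had 2 UMIs in all mural-gated cells, 1 in each EAE library, against 1739 in fibroblast-gated cells (-4.98, SE 0.59, adjusted p = 8.16e-07). With 2 UMIs it entered the fit through the fibroblast-gated sums, so that value is no measure of size and no call is drawn from it. Col5a3 did not pass (-0.55, SE 0.66, adjusted p = 0.651), but without EAE 2 it was called lower in mural-gated cells (-2.67, adjusted p = 0.00138).

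Among mural-gated cells Col5a3 was spread unevenly over the libraries. It had 24 UMIs in 10 of the 29 cells of EAE 2 (141 CPM) and 2 UMIs in 1 of the 53 cells of EAE 1 (12.3 CPM), against 0, 1 and 0 UMIs in Healthy 1, Healthy 2 and Healthy 3. EAE 2 was high and every other library was at or under the level of 3 counts. Col5a3 did not pass the filter on low counts in mural-gated cells alone, so its EAE effect there has no test of its own. In a joint fit of both classes, which it entered through the fibroblast-gated sums, the fitted difference between the effects was 4.44, where 0.658% of 8360 genes were called higher. With 4 of 5 mural sums under 3 counts, that value is no measure of size, and no call is drawn from it. The fitted difference was 2.34 without EAE 2. Cycling markers in mural-gated cells summed to 6.14 and 364 CPM in EAE 1 and EAE 2, against 0, 270.2 and 10.98 CPM in Healthy 1, Healthy 2 and Healthy 3, and their part was not tested.

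**Figure D3:**
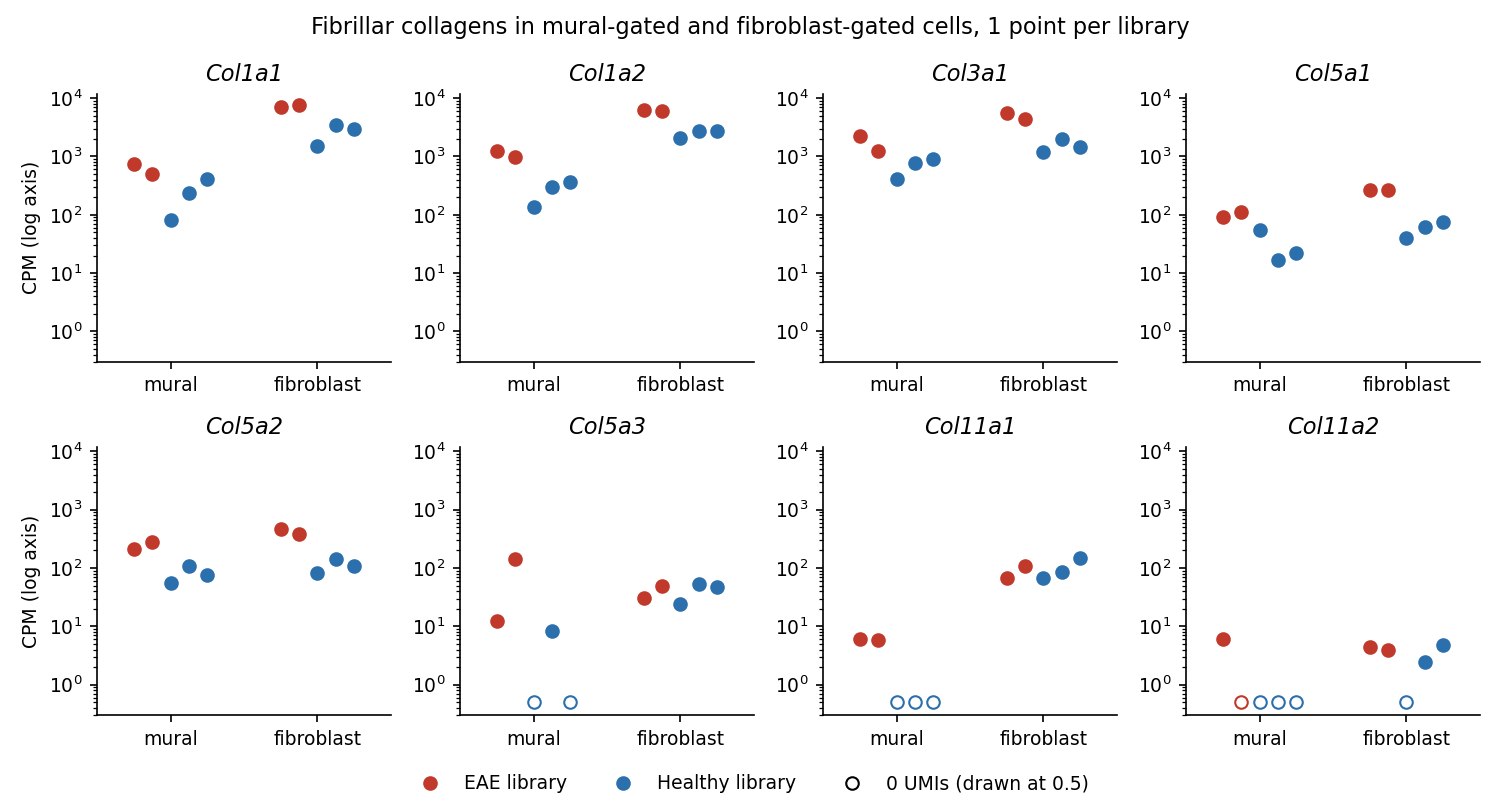
Level of each fibrillar collagen in CPM (log axis) in mural-gated cells (left) and fibroblast-gated cells (right), 1 point per library, EAE in red and Healthy in blue, with open points at 0.5 for libraries with 0 UMIs. Col1a1 and Col11a1 are well apart between the classes, Col5a2 is closer, and the 141 CPM of Col5a3 in mural-gated cells of EAE 2 stands above the other libraries.

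Immune-gated cells (Ptprc, Tyrobp and 5 other markers) had enough cells in EAE 1 and EAE 2 only, with 124 and 28, and served as a low end. All 7 members tested were lower there than in fibroblast-gated cells, where 22.5% of genes were, with 30 UMIs of Col1a1 (56.5 CPM) against 7199 CPM in fibroblast-gated cells of the same libraries (log2 difference -6.95, SE 0.43, adjusted p = 4.54e-11). Without EAE 1 the count was 6 of 7. Col5a1 had 1 UMI in immune-gated cells, and Col5a3 and Col11a1 had 0. These members entered the fit through the sums of other classes, so no call is drawn for them from the count above. Against a floor of 3 counts over both libraries, Col5a3 and Col11a1 were at least 6.85-fold and at least 15.3-fold lower there. Melanocyte-gated cells, 46 in all, occurred in EAE 1 alone, so no test was made. They had 3 UMIs of Col1a1 (4.32 CPM) and 4 of Col3a1 (5.76 CPM), against 6978 and 5504 CPM in fibroblast-gated cells of that library.

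Fibroblast-gated cells were divided further by 8 small marker sets, named here by their genes, and set against fibroblast-gated cells of no such subset. The subset with UMIs of Tnc or Cxcl9 had 148 and 60 cells in EAE 1 and EAE 2 and 3, 3 and 0 cells in Healthy 1, Healthy 2 and Healthy 3, so its test rests on the EAE libraries. All 3 type V chains were higher in it. Col5a3 stood at 102 and 122 CPM in the Tnc Cxcl9 cells of EAE 1 and EAE 2, against 19.6 and 38.5 CPM in cells of no subset of those libraries (log2 difference 2.00, SE 0.28, adjusted p = 1.45e-07). Col5a1 stood at 430.4 and 464 CPM against 223 and 229 CPM (1.16, SE 0.29, adjusted p = 0.00709), and Col5a2 at 747 and 644 CPM against 389.98 and 350.3 CPM (1.15, SE 0.29, adjusted p = 0.00631). Each of these 6 pairs was higher in the Tnc Cxcl9 cells.

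Those 3 were the members called higher of 7 tested, where 5.57% of 7848 genes were, and Col1a1 (0.80, adjusted p = 0.221), Col1a2 (0.85, adjusted p = 0.201) and Col3a1 (0.71, adjusted p = 0.464) did not pass. Without EAE 1 the call of Col5a2 was lost (adjusted p = 0.261), and without EAE 2 Col11a1 was called lower in the subset (adjusted p = 0.0243). The Tnc Cxcl9 cells were also deep, with median UMI counts of 6706.5 and 11065.5, against 3333 and 3530 in cells of no subset of EAE 1 and EAE 2, and the part of depth was not tested. Col11a1 was lower in the subset with UMIs of Igfbp3, Slc13a3 or Wnt4, at 53.2 and 52.2 CPM against 72.3 and 93.9 CPM in cells of no subset of EAE 1 and EAE 2. The fit also used Healthy 1, where 11 cells of that subset had 0 UMIs and cells of no subset stood at 90.5 CPM. It gave -0.99 (SE 0.27, adjusted p = 0.0132), where 2.80% of genes were lower, a larger difference than the EAE libraries show. That call was lost without EAE 1 (adjusted p = 0.0574), EAE 2 (0.0621) or Healthy 1 (0.0785). No member was called in the other 6 subsets by edgeR, where the share of genes called in either direction was 6.79% for Clec3b Igfbp2, 1.85% for Gfra1 Osr2, 1.24% for Inmt Cldn1 Aldh1a3, 2.31% for Itih5 Hsd11b1 Edn3, 0.765% for Lcn2 Saa3 and 2.57% for Lsp1 Npy1r Dapk1.

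The difference between EAE and Healthy was not the same in every subset of fibroblasts. These tests were added after the data were seen. In cells of no subset, Col1a2 (1.13), Col3a1 (1.35), Col5a1 (1.93) and Col5a2 (1.69) rose in EAE, 4 of 7 where 6.37% of 6296 genes did. In the subset with UMIs of Itih5, Hsd11b1 or Edn3 (82 and 161 cells in EAE 1 and EAE 2, and 106, 49 and 89 in Healthy 1, Healthy 2 and Healthy 3), Col1a1 rose with them. There the log2 fold changes were 1.46 for Col1a1 (SE 0.31, adjusted p = 0.0182), 1.25 for Col1a2, 1.81 for Col3a1, 2.58 for Col5a1 and 1.78 for Col5a2, 5 of 7 where 3.09% of 5478 genes rose. Without EAE 1 and without EAE 2 this count was 3, as Col1a1 and Col1a2 were lost, and without Healthy 3 it was 2.

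In the subset with UMIs of Gfra1 or Osr2, none of the 6 members tested passed the test of EAE against Healthy, where 0.896% of 2232 genes did in either direction. This subset had 15 and 34 cells in EAE 1 and EAE 2 and 67, 65 and 109 in Healthy 1, Healthy 2 and Healthy 3. Col1a1 stood there at 2717 and 1846 CPM in EAE 1 and EAE 2 and at 1999, 3597 and 2790 CPM in Healthy 1, Healthy 2 and Healthy 3, so the groups overlapped. Col3a1 stood at 1811 and 808 CPM in EAE 1 and EAE 2, against 1999, 2393 and 1790 CPM in Healthy 1, Healthy 2 and Healthy 3. Col5a1 had 0 and 10 UMIs in EAE 1 and EAE 2, too few to measure its level in EAE there.

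The test of the difference itself, the EAE effect in Gfra1 Osr2 cells minus that in cells of no subset, was negative for 5 of 7 members, where 1.34% of 6182 genes were called so. It was -1.89 for Col1a1 (SE 0.31, adjusted p = 3.89e-04), -1.77 for Col1a2 (SE 0.31, adjusted p = 7.59e-04) and -2.27 for Col3a1 (SE 0.36, adjusted p = 4.90e-04). For the type V chains it was -2.21 for Col5a1 (SE 0.55, adjusted p = 0.00810) and -1.62 for Col5a2 (SE 0.42, adjusted p = 0.0133). The value of Col5a1 rests on the few EAE UMIs given above, so -2.21 is no measure of size. The calls of Col1a1, Col1a2 and Col3a1 held without each library in turn, while Col5a1 was lost without EAE 1 (adjusted p = 0.105) and Col5a2 without EAE 2 (adjusted p = 0.679). The genes that define this subset differed between the states as well. A cell also had to hold more UMIs of them than of any other subset list, such as Lcn2 Saa3. That list summed to 5700 and 1654 CPM in fibroblast-gated cells of EAE 1 and EAE 2, against 723, 44.3 and 0 CPM in Healthy 1, Healthy 2 and Healthy 3. The part of the subset genes and of this selection in the result was not tested. The Gfra1 Osr2 markers summed to 20.8 and 39.6 CPM in all fibroblast-gated cells of EAE 1 and EAE 2, against 308, 285 and 413 CPM in Healthy 1, Healthy 2 and Healthy 3.

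In the Clec3b Igfbp2 subset (103 and 42 cells in EAE 1 and EAE 2, and 120, 70 and 73 in Healthy 1, Healthy 2 and Healthy 3) the log2 fold changes of Col1a1, Col3a1 and Col5a1 were 0.61, 0.89 and 1.43, and none of the 6 members tested passed, where 1.48% of genes did. The Inmt Cldn1 Aldh1a3 subset, with 10 to 12 cells in a Healthy library, had no called member among the 4 tested, where 2.19% of genes were called. For neither subset was the difference from cells of no subset called for any member, where 1.78% and 0.906% of genes were. In the Inmt Cldn1 Aldh1a3 subset that result turned on single libraries. With all libraries its difference for Col3a1 was -1.41 (adjusted p = 0.0621), and 2 of Col1a1, Col1a2 and Col3a1 were called lower without EAE 1, EAE 2, Healthy 1 or Healthy 2, but none without Healthy 3. In the Clec3b Igfbp2 subset 1 member was called lower without EAE 1 (Col1a2) and without Healthy 2 (Col1a1). In Itih5 Hsd11b1 Edn3 cells, the EAE effect on Col11a1 was higher than in cells of no subset by 1.36 (SE 0.36, adjusted p = 0.0326, where 0.0971% of genes were called higher), and this call was lost without any 1 of the 5 libraries.

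**Figure D4:**
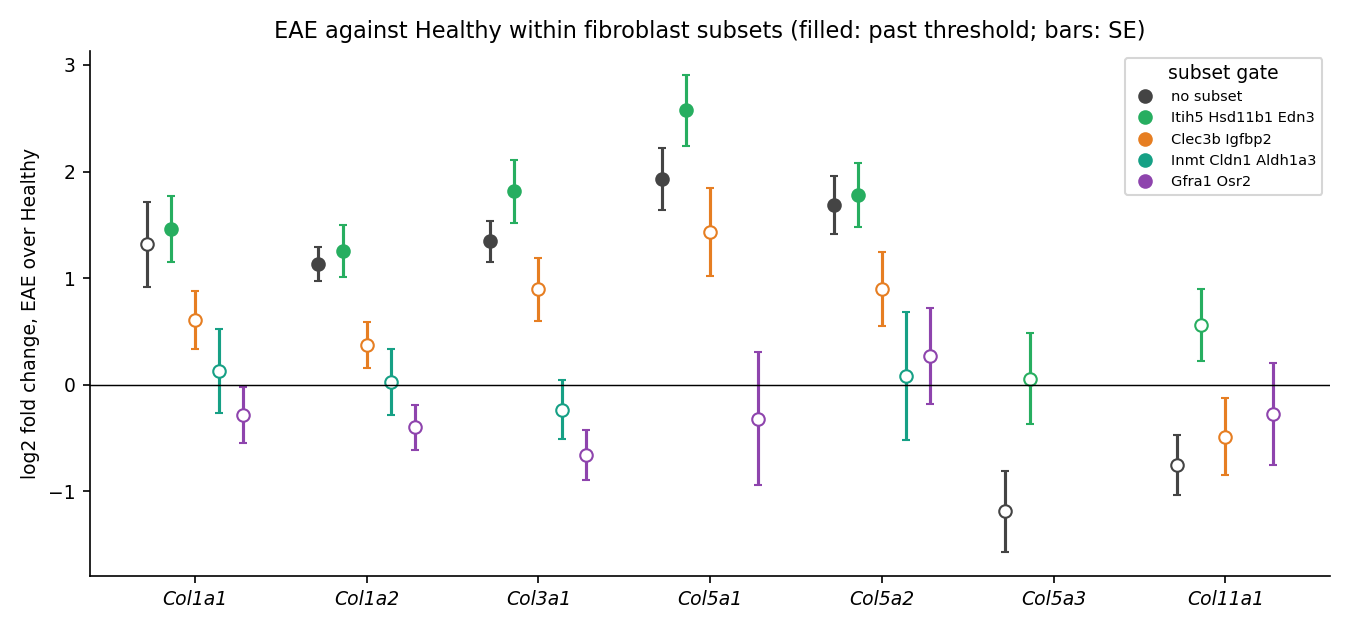
Log2 fold change, EAE over Healthy (vertical axis), of 7 fibrillar collagens within 5 groups of fibroblast-gated cells, with standard errors as bars and filled points for adjusted p under 0.05. For Col1a1 the values run from 1.46 in Itih5 Hsd11b1 Edn3 cells to -0.28 in Gfra1 Osr2 cells.

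Genes that build, cross-link, bind and degrade these fibrils were read from 8 lists, in fibroblast-gated cells, where 10.3% of all genes tested were called higher and 10.7% lower. All 4 lysyl oxidases tested rose in EAE and none fell, of 5 in the list, with a median log2 fold change of 2.05 against 0.00438 over all genes. These enzymes cross-link collagen outside the cell. Lox stood at 476 and 335 CPM in EAE 1 and EAE 2, against 59.5, 31.1 and 47.8 CPM in Healthy 1, Healthy 2 and Healthy 3 (3.07, adjusted p = 3.03e-05), and Loxl1 rose by 2.36 (adjusted p = 4.54e-05). Bmp1, which removes the C-terminal propeptide so that fibrils can form, stood at 158 and 150.2 CPM in EAE 1 and EAE 2 and at 14.9, 18.9 and 12.8 CPM in Healthy 1, Healthy 2 and Healthy 3 (3.25, adjusted p = 1.27e-05). It was 1 of 2 propeptide proteases tested out of 9 in that list, and the other did not pass.

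Of 17 collagen hydroxylases and chaperones tested, 2 rose, 3 fell and 12 did not pass, and their median was 0.15. These counts are close to the shares over all genes (10.3% higher, 10.7% lower). Plod2, a lysyl hydroxylase, rose by 1.31 (adjusted p = 0.00122) and P4hb, a subunit of prolyl 4-hydroxylase, by 0.86 (adjusted p = 0.00990). P3h2, a prolyl 3-hydroxylase, stood at 0.464 and 1.30 CPM in EAE 1 and EAE 2 and at 9.56, 7.38 and 6.05 CPM in Healthy 1, Healthy 2 and Healthy 3 (-3.22, adjusted p = 0.00600). These levels rest on few UMIs, 4 and 9 in EAE 1 and EAE 2 and 9 in each Healthy library. Fkbp14, a prolyl isomerase, fell by 0.93 on the log2 scale (adjusted p = 0.00844). P4hb lost its call without EAE 1, EAE 2 or Healthy 3 (adjusted p up to 0.426 over 19 alternatives), P3h2 without EAE 1, and Fkbp14 without EAE 1, EAE 2 or Healthy 3.

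Among 9 genes of fibril-associated matrix, 3 rose and 1 fell (median 0.34), where 10.3% and 10.7% of all genes did, so the count of 1 lower is at that share. Fn1, the gene of fibronectin, on which collagen is laid down, rose by 2.11 (adjusted p = 7.46e-05) and Thbs2, a matricellular protein, by 1.54 (adjusted p = 5.62e-04). Fmod, a small proteoglycan that binds type I collagen, stood at 64.3 and 42.5 CPM in EAE 1 and EAE 2, against 386, 359 and 504 CPM in Healthy 1, Healthy 2 and Healthy 3 (-3.06, adjusted p = 3.03e-05). The other fibrillar collagens split, with Col27a1 higher by 1.26 (adjusted p = 0.00265, lost without EAE 1) and Col2a1, the main collagen of cartilage, at 1.86 and 1.73 CPM in EAE 1 and EAE 2 against 14.9, 33.6 and 26.9 CPM in Healthy 1, Healthy 2 and Healthy 3 (-3.91, adjusted p = 9.13e-05). Chondrocyte markers summed to at most 1.35 CPM in any library in these cells.

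Of 7 collagen receptors tested, 2 rose, 0 fell and 5 did not pass (median 0.56), against 10.3% higher over all genes. Itga1, the alpha subunit of a collagen-binding integrin, rose by 2.32 (adjusted p = 1.79e-04), and Ddr2, a receptor kinase for fibrillar collagen, by 0.65 (adjusted p = 0.0464). Of 5 collagen-degrading proteases tested, 3 rose and 0 fell (median 0.96), against the same share over all genes. Mmp9 had 91 and 102 UMIs in EAE 1 and EAE 2 and 0, 0 and 1 in Healthy 1, Healthy 2 and Healthy 3 (5.25, adjusted p = 5.74e-04), and Mmp13, a collagenase, had 65 and 144 UMIs in EAE 1 and EAE 2 and 2, 0 and 0 in Healthy 1, Healthy 2 and Healthy 3 (4.35, adjusted p = 0.00389). Mmp9 and Mmp13 were thus near 0 in every Healthy library and passed the filter on low counts through the EAE sums. So 5.25 and 4.35 are no measure of size, and no call is drawn for these genes from the count above.

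Of 12 genes of the TGF-beta axis, whose ligands are known to induce collagen synthesis, 3 rose and 1 fell, while 8 missed the threshold (median 0.48), and 1 lower of 12 is near the 10.7% over all genes. Tgfb2, a ligand, rose by 1.79 (adjusted p = 0.00708) and Smad7, an inhibitor of the pathway, by 0.99 (adjusted p = 0.0184), and Tgfbr3, a co-receptor, fell by 0.61 (adjusted p = 0.0456). Tgfb2 lost its call without EAE 2 or Healthy 3. Smad7 lost it without EAE 2, Healthy 2 or Healthy 3. Ddr2 and Tgfbr3 lost theirs without EAE 1, EAE 2, Healthy 2 or Healthy 3, and in 11 and 14 of 19 alternatives in all.

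**Figure D5:**
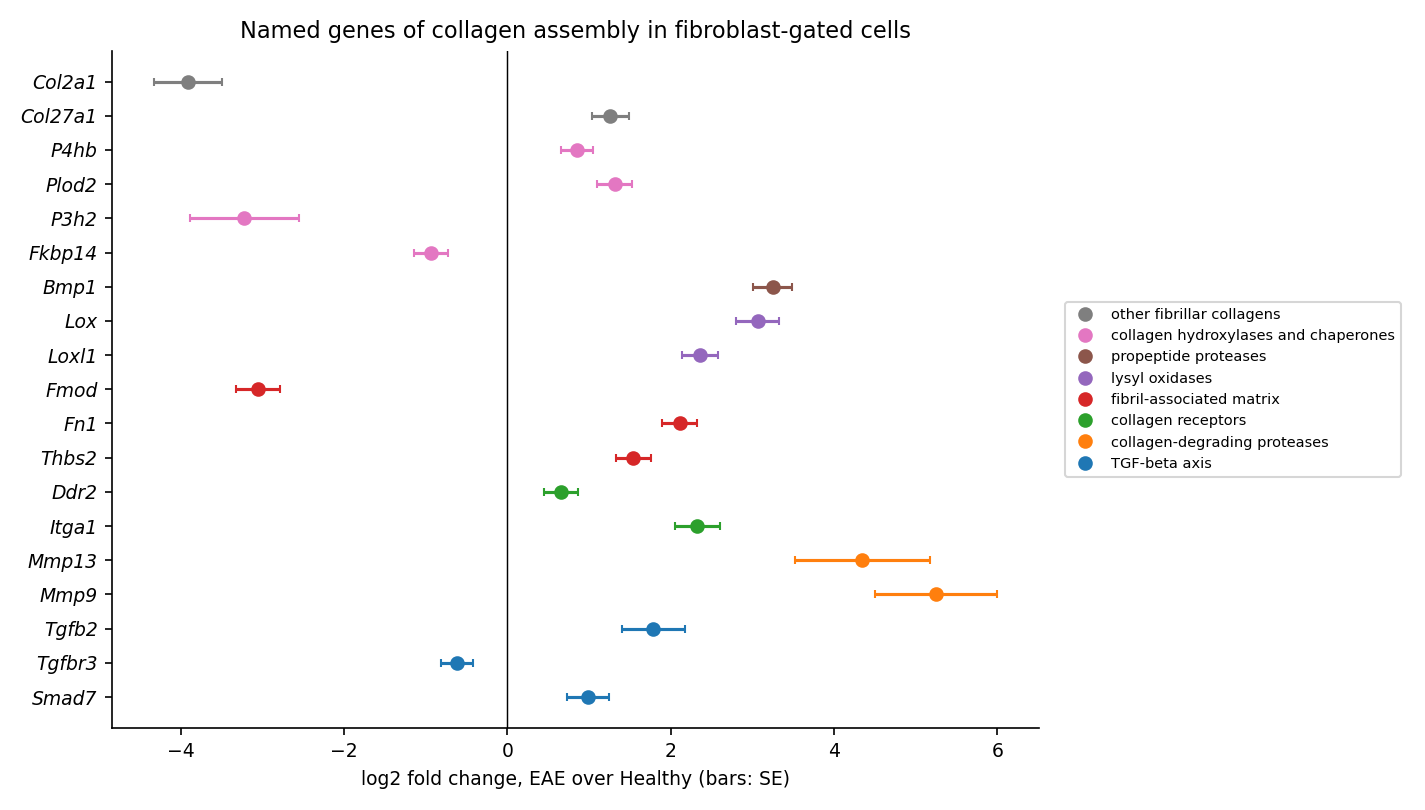
Log2 fold change, EAE over Healthy (horizontal axis), of the 19 genes named from the lists on collagen assembly in fibroblast-gated cells, coloured by list, with standard errors as bars. Lox (3.07) and Bmp1 (3.25) lie to the right of 0, and Col2a1 (-3.91), P3h2 (-3.22) and Fmod (-3.06) to the left.

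Genes whose levels followed each fibrillar collagen closely were read over 13 sums of at least 10 cells per class and library, among 6202 genes with a mean of at least 20 CPM. The points share libraries and differ in class, so the values describe these sums, with no test. For Col1a1 they included Pltp (Pearson r of log2(CPM + 1) 0.951) and Loxl1 (0.950), and for Col1a2 Serping1 (0.963) and Bicc1 (0.961). For Col3a1 they included Bgn (0.981), the small proteoglycan biglycan, and Serping1 (0.976).

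Col5a1 was followed by Col6a3 (0.961), a chain of type VI collagen, Sod3 (0.935) and Col27a1 (0.935). Col5a2 was followed by Igfbp5 (0.959), Vcam1 (0.958) and Setbp1 (0.954), and Col5a3 by Ptk7 (0.958), Egflam (0.937) and Creb3l1 (0.933). For Col11a1 they were Bmp7 (0.990), a secreted growth factor, Plxna2 (0.968) and Igf2 (0.967). Among the members themselves, Col1a1 and Col1a2 had an r of 0.979, and Col11a1 and Col5a2 the lowest, at 0.607. Col11a2 was below the minimum level.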

How the data were processed

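Single cells were sequenced from sorted spinal cord cells of 5 libraries, 2 from EAE and 3 from healthy mice. The labels' protocols name 10x Genomics v2 chemistry. Tools named in the submitters' processing notes are Cell Ranger 2.1.1 and Seurat 3, with the build mm10. The authors deposited raw UMI counts per gene and barcode. How cells were called is not stated by any label or header used here. Libraries whose labels carry a lane (EAE 2, Healthy 3) were taken as one batch and the others as another.

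A shared barcode was counted once, where its UMI total was highest. The filter asked for 200 or more genes and no more than 10% mitochondrial UMIs, which with the rule on shared barcodes left 4678 of 7205, and doublets were not removed. A cell took a class with at least 3 UMIs from at least 2 genes of a marker list and at least 2 times those of any other list. A fibroblast-gated cell took the subset whose list had at least 2 UMIs and more than every other subset list. UMIs were summed per library, because cells are not replicates, and CPM are over those sums. Sums of at least 10 cells entered class fits.

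Tests used edgeR 4.0.16 (TMM, its filter on low counts, batch and state as terms, or library and class), with Benjamini-Hochberg adjustment over all genes and a threshold of 0.05. Standard errors were derived from the quasi-likelihood F statistic, as the absolute log2 change divided by its root. DESeq2 1.42.0 was an alternative. Ratios and shares were compared by exact permutation, which cannot go under p = 0.2. On simulated counts of the fibroblast comparison, 49 of 50 genes with a log2 change of 2 were called, 42 of 50 with -2, 19 of 50 with 1, 10 of 50 with -1, and 0.0515% of 9704 unchanged genes. So a change of 1 was often missed in the simulation. It gave every gene the same dispersion, held no batch effect and changed only genes above a minimum mean count. Its shares of calls therefore need not hold for the measured counts.

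All 8 members are reported. For each, the 3 genes with the highest correlation were to be named, and some of these are not reported here. From each list up to 2 genes higher and 2 lower with the largest fold change past the threshold were named. The members, markers and lists were chosen with earlier results of these data known, and subset markers came from clusters of the same cells. Alternatives covered scaling, filters, batch, shared barcodes, gates, thinning and each library left out. The subset-by-state tests, and leaving out libraries from class and subset fits, were added after the data were seen.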

Additional observations from a re-analysis of the deposited data

Results flagged for a closer look

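For 7 members the fit of a difference between the EAE effects in classes or subsets of cells passed the threshold (edgeR, adjusted over all genes), though for Col5a3 nothing is drawn from it.

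For Col5a3 the fitted difference between mural-gated and fibroblast-gated cells was 4.44 on the log2 scale. The gene was filtered out of the fit of mural-gated cells alone, 24 of its 27 mural UMIs were in EAE 2, and the other 4 libraries were under 3 counts, so the value measures no size. Without EAE 2 it was 2.34.

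In Gfra1 Osr2 cells the EAE effect was below that in fibroblast-gated cells of no subset by a difference of -1.89 for Col1a1, -1.77 for Col1a2, -2.27 for Col3a1, -2.21 for Col5a1 and -1.62 for Col5a2. EAE 1 held 15 and EAE 2 held 34 of these cells. Col5a1 had few or no UMIs in them, so its value measures no size.

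In Itih5 Hsd11b1 Edn3 cells the EAE effect on Col11a1 was above that in cells of no subset by 1.36, and the call was lost without any 1 library (adjusted p 0.0611 to 0.272).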

How the results depend on the processing

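No paired analysis was possible because the title of EAE 1 carries no number (its 1 is given here only as a name), so the labels of the states share only the number 2, and nothing says that a number marks a shared animal. The calls of Col3a1, Col5a1 and Col5a2 in fibroblast-gated cells held without each library in turn.

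In fibroblast-gated cells, genes called higher and lower numbered 1019 and 1057. Genes higher were 638 with DESeq2, 678 with no batch term and 1711 with no filter on low counts. Genes higher and lower were 425 and 415 with shared barcodes left out, 528 and 457 with thinned cells, and 654 and 620 without the 3 EAE-rich subsets. Within 1 subset they were 33 and 21 (Clec3b Igfbp2), 16 and 4 (Gfra1 Osr2), 13 and 10 (Inmt Cldn1 Aldh1a3), 169 and 126 (Itih5 Hsd11b1 Edn3), and 401 and 363 in cells of no subset. Members higher were 0 in the Clec3b, Gfra1 and Inmt subsets. In all kept cells genes higher were 607 with no batch term, 524 with barcodes as deposited, 1812 with no filter and 414 with shared barcodes left out (406 lower, 2 members higher), and thinning gave 524 and 478. In mural-gated cells genes higher and lower were 7 and 5 with DESeq2, 4 and 0 with no batch term (0 members), and genes higher were 4 with barcodes as deposited (0 members).

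With each library left out in turn, genes higher ranged from 339 to 1493 and lower from 330 to 1250 in fibroblast-gated cells (3 to 5 members higher, 0 lower). They ranged from 378 to 1444 and from 379 to 1178 in all kept cells (4 to 5 members higher, 0 to 1 lower), and from 0 to 33 and 0 to 41 in mural-gated cells (0 to 2 members higher). Mural against fibroblast gave 548 to 815 genes higher and 621 to 1139 lower (5 to 7 members lower), immune against fibroblast 251 to 1050 and 464 to 1614 (6 to 7 members lower), and the mural-by-state difference 18 to 53 and 24 to 104 (0 to 1 members higher). Members higher ranged from 2 to 3 in the Tnc Cxcl9 subset, and members lower from 0 to 1 there and in the Igfbp3, Clec3b and Inmt subsets. For EAE against Healthy, members higher ranged from 2 to 5 within Itih5 cells, 0 to 1 within Clec3b cells and 4 to 5 in cells of no subset (0 to 1 lower). Members lower in the difference from cells of no subset ranged from 4 to 5 for Gfra1 Osr2, 0 to 1 for Clec3b and 0 to 2 for Inmt, and members higher were 0 for Itih5.

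The sign changed in Gfra1 Osr2 cells alone for Col1a1 (-0.28), Col1a2 (-0.40), Col3a1 (-0.65) and Col5a1 (-0.32), in Inmt cells for Col3a1 (-0.23), and in Itih5 cells for Col5a3 (0.058) and Col11a1 (0.56). With a library left out, Col5a3 ranged from -0.48 to 0.11 in fibroblast-gated cells, above 0 without Healthy 2, and from -0.51 to 0.16 in all kept cells, above 0 without Healthy 2 or without EAE 1 (0.12). The log2 ratio of Col3a1 to Col1a1 turned to -0.046 with barcodes as deposited and ranged from -0.051 to 0.39 with a library left out. The ranges for the other ratios were -0.39 to -0.02 (Col1a2 to Col1a1), 0.11 to 0.43 (Col5a1 to Col5a2), -2.61 to -1.96 (Col5a3 to Col5a1) and -2.73 to -2.05 (Col11a1 to Col5a1), the last 2 at -1.48 and -1.63 with barcodes as deposited. Without thinning, share differences were 3.44 points for Col5a3 and 8.32 points for Col11a1. Library totals in place of TMM moved the median of all genes to 0.10. Of the other values, 740 for single genes kept their direction and, where a threshold was applied, their side of it. A further 89 single-gene values lost the call and 24 gained it. For whole comparisons, 363 values stayed near the main count or kept the sign of the ratio, and 97 counts moved further from the main count. The causes were not tested. Col11a2, with at most 38 UMIs in a library, was too sparse for a test in fibroblast-gated cells.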
